A study of Mus musculus with 2 samples.

Results

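Gata4, Gata5 and Gata6 are 3 of the 16388 genes measured at both stages in single cells of wild-type mouse embryos. The cells came from the second heart field, progenitor mesoderm behind the heart tube that adds cells to both of its poles. The members were taken by gene symbol, and each was found in both count matrices. The cells are labelled Osr1+ (Osr1 encodes a zinc finger factor of early lateral and intermediate mesoderm), without a statement of how they were chosen; every deposited cell held at least 1 Osr1 UMI (unique molecular identifier, 1 counted transcript). At embryonic day (E) 9.5 the tissue was divided into anterior (54 cells), middle (61) and posterior (418) libraries, and at E10.5 into outflow tract (31), anterior (45), middle (331) and posterior (560) libraries. No mutant, treatment or reporter entered any group, no source used here says how many embryos stand behind a library, and each position was measured once per stage.

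In GENCODE vM21 on GRCm38, Gata4 (ENSMUSG00000021944.15) lies at chr14:63198922-63271692 on the minus strand, Gata5 (ENSMUSG00000015627.5) at chr2:180325133-180334699 on the minus strand, and Gata6 (ENSMUSG00000005836.10) at chr18:11052064-11085635 on the plus strand. The antisense gene Gata5os overlaps Gata5 by 1843 bases; it held 0 or 1 count in each library, and the strand setting of the counting is not given in the sources used here.

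GATA4, GATA5 and GATA6 are zinc finger transcription factors that bind the DNA motif from which the family takes its name. In the embryo they are known from cardiac mesoderm and from foregut endoderm and its surrounding mesenchyme, and they act with other heart factors such as the T-box protein TBX5 and with the FOG cofactors encoded by Zfpm1 and Zfpm2. The other partners examined here were Foxf1, a forkhead gene of splanchnic mesoderm and a target of Hedgehog signalling, and Barx1, a homeobox gene of the mesenchyme around the stomach and foregut.

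To place the genes that the posterior results turn on beside their regulatory sequence, the 250 bases before the RefSeq start (GRCm38.p6) are printed for Gata5, for Barx1 and for Hand2, a basic helix-loop-helix heart gene with a high odds ratio of co-detection with Gata4 in both posterior libraries. Capitals mark matches to the GATA motif, searched as GATA with A or T before it and A or G after it, on either strand. The Hand2 and Barx1 windows were picked after their co-detection values had been seen.
Gata5 promoter, chr2:180334680-180334929, minus strand: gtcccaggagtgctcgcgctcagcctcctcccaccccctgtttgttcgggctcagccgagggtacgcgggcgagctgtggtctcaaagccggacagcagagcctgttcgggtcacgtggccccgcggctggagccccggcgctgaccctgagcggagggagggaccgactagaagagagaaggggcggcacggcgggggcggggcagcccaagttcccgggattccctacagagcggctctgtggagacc
Barx1 promoter, chr13:48662786-48663035, plus strand: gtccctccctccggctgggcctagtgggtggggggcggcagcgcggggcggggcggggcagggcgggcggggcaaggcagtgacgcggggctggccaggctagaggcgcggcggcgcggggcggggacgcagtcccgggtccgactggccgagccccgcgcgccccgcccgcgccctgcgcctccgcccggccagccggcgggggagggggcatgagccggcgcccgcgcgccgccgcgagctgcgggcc
Hand2 promoter, chr8:57320733-57320982, plus strand: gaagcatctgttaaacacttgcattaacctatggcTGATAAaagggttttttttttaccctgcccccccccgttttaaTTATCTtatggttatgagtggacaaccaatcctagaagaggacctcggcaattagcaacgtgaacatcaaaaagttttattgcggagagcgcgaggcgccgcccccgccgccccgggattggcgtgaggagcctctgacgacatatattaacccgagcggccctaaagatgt
Neither the Gata5 nor the Barx1 window held the motif letters. The Hand2 window held 2 matches, TGATAA from 215 to 210 bases before the start and TTATCT, the motif on the opposite strand, from 172 to 167 bases before it. Of 32851 RefSeq promoter windows of the same length, 26.5% held at least 1 match and 6.40% held 2 or more, and a match describes letters only.

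The libraries differed in depth and in the cells they held, and these values touch every result that follows. Median UMIs per cell ran from 23021 to 31251 in the E9.5 libraries and from 5262 to 6084 in the E10.5 libraries, and library totals from 196584 (E10.5 outflow tract) to 13647039 (E9.5 posterior). Clustering without the GATA genes gave 11 clusters, none holding cells of both stages in number, of which 3 could be named from markers: an E9.5 epithelium-like cluster, a cardiomyocyte-like cluster, 33 of whose 36 cells were from the E9.5 posterior library, and an E10.5 hepatoblast-like cluster that also carried 9 of 11 epithelium markers. The epithelium-like cluster held 72.2% of the E9.5 anterior cells, 34.4% of the middle cells and 55 of the 418 posterior cells. Summed cardiomyocyte markers (8 measured of 9) stood at 1730 CPM (UMIs scaled to the library total) in the E9.5 posterior library, 589 in the E9.5 anterior library and 15.8 to 253 in the others. The hepatoblast-like cluster held 47 posterior, 14 middle and 5 outflow tract cells. The 6 hepatoblast markers summed to 339 CPM in the E10.5 posterior library, 4.41 in the middle and 0 in the outflow tract library. The name thus rests on its posterior cells. Xist RNA, which coats the inactive X chromosome of females, was detected in 0.188% of E9.5 and 93.4% of E10.5 cells. Of all barcodes, 1 occurred in more than 1 library.

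Gata4 was counted almost wholly in posterior libraries at both stages. It was counted 1 time in the E9.5 anterior library, 10 times in the middle library and 1089 times in the posterior library, and at E10.5 it was counted 0 times in the outflow tract and anterior libraries, 2 times in the middle library and 102 times in the posterior library. Scaled to library totals this was 0.771, 6.25 and 79.8 CPM at E9.5, and 0, 0, 0.980 and 29.6 CPM at E10.5. The exact Poisson intervals of the E9.5 posterior level (75.1 to 84.7, 95%) and the E10.5 posterior level (24.1 to 35.9) overlapped those of no other library of their stage. Such intervals cover counting error only, and the counts of 0 allow levels of up to 15.3 CPM in the outflow tract and 11.8 CPM in the E10.5 anterior library.

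In edgeR's quasi-likelihood fit of the 6 libraries with a partner at the other stage, Gata4 was higher in posterior than in anterior libraries by 6.72 ± 0.71 on the log2 scale (SE, n = 2 libraries per position, Benjamini-Hochberg adjusted p = 0.00656). It was also higher in posterior than in middle libraries, by 3.97 ± 0.41 (adjusted p = 0.00473). At this threshold 0.153% of the 9825 genes tested were called higher in posterior than anterior libraries and 0.142% higher in posterior than middle libraries. Within E9.5 the posterior level was 103-fold the anterior level (exact conditional interval 18.5 to 4089) and 12.8-fold the middle level (6.92 to 26.7). Within E10.5 it was 30.2-fold the middle level (8.15 to 253). Against a floor of 3 counts in the E10.5 anterior library it was 2.50-fold the level there, with an exact lower limit of 2.00. The anterior call rested on the E9.5 anterior library: without it the adjusted p became 0.0876, with 0 Gata4 counts in the remaining anterior library. The cause was not tested.

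Gata6 had the widest reach of the 3 genes. Its counts at E9.5 were 40 anterior, 99 middle and 1670 posterior, which is 30.9, 61.8 and 122 CPM, with intervals of 22.0 to 42.0, 50.3 to 75.3 and 117 to 128 that did not overlap. At E10.5 it was counted 8 times in the outflow tract (40.7 CPM, 17.6 to 80.2), 0 times in the anterior library, 43 times in the middle library (21.1 CPM, 15.2 to 28.4) and 271 times in the posterior library (78.6 CPM, 69.5 to 88.5). The outflow tract interval overlapped those of the middle and posterior libraries, and 5 of its 8 UMIs were in 1 cell. Gata6 was the only one of the 3 genes with a UMI in the outflow tract library. Against a floor of 3 counts in the E10.5 anterior library its level was 3.44-fold that of the anterior library, with an exact lower limit of 2.20.

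Gata5 was highest in the posterior library at both stages. It was counted 20, 30 and 763 times from anterior to posterior at E9.5, which is 15.4, 18.7 and 55.9 CPM, and the anterior (9.42 to 23.8) and middle (12.6 to 26.7) intervals overlapped. At E10.5 it had 0 counts in the outflow tract and anterior libraries, 28 in the middle library (13.7 CPM, 9.12 to 19.8) and 102 in the posterior library (29.6 CPM, 24.1 to 35.9). The posterior level was 3.62-fold the anterior level (2.33 to 5.97) and 2.98-fold the middle level (2.07 to 4.45) at E9.5, and 2.16-fold the middle level (1.41 to 3.40) at E10.5.

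Across stages neither Gata5 nor Gata6 passed the test in edgeR's fit. The fitted posterior to anterior difference was 1.98 ± 0.51 for Gata5 (adjusted p = 0.320) and 2.40 ± 0.47 for Gata6 (adjusted p = 0.135), and the posterior to middle difference was 1.26 ± 0.40 (adjusted p = 0.777) and 1.35 ± 0.37 (adjusted p = 0.453), each on the log2 scale with its SE. From anterior to middle, edgeR's fit gave 2.75 ± 1.03 for Gata4, 0.72 ± 0.56 for Gata5 and 1.05 ± 0.49 for Gata6, with adjusted p = 1.00 for each, and called 0 of 9825 genes, while DESeq2 called 4 and 345 had an unadjusted edgeR p under 0.05. DESeq2 called Gata6 higher in posterior than anterior libraries (log2 fold 2.61, adjusted p = 0.00349). On simulated counts with known log2 changes the edgeR test found 10 of 65 changes of size 1, 42 of 63 of size 2 and 62 of 66 of size 3, so a difference of the size fitted for Gata5 or Gata6 could be missed.

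**Figure D1:**
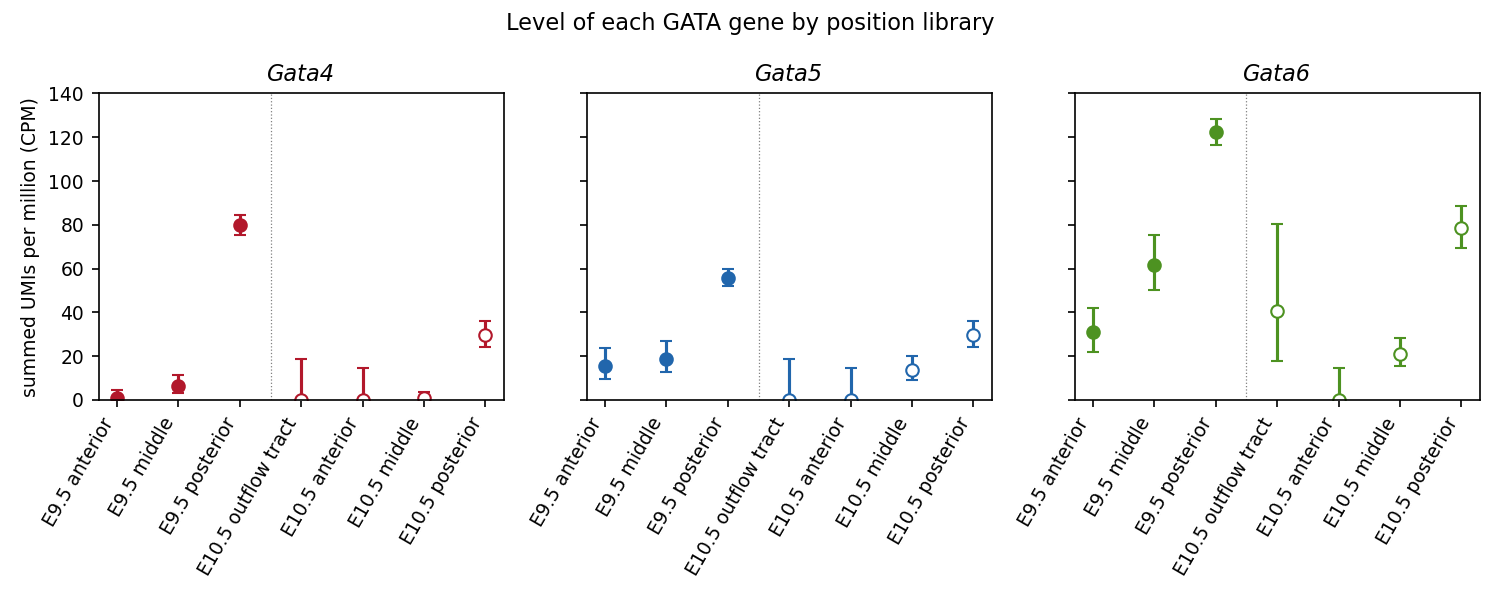
Level (CPM, summed UMIs scaled to the library total) of Gata4, Gata5 and Gata6 in the 7 position libraries; filled points are E9.5 libraries, open points E10.5 libraries, and bars are exact 95% Poisson intervals, which cover counting error only. Gata4 reaches 79.8 and 29.6 CPM in the posterior libraries and at most 6.25 CPM elsewhere, while Gata5 and Gata6 have counts in the middle libraries of both stages.

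**Figure D2:**
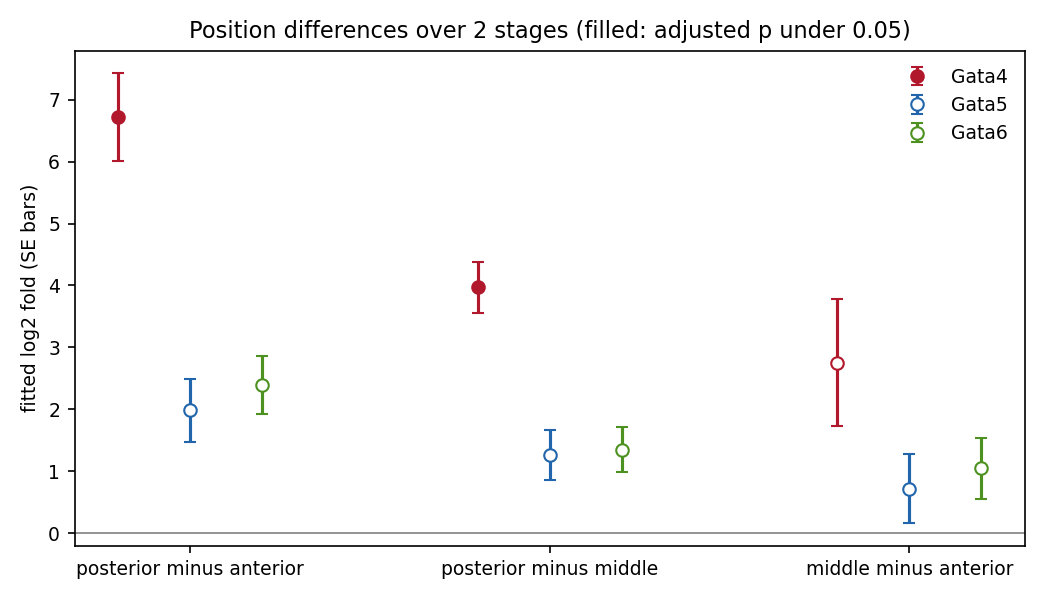
Fitted log2 difference of each gene for each pair of positions over both stages (edgeR, 6 libraries), with standard errors as bars; filled points have an adjusted p under 0.05. Gata4 passes for posterior against anterior (6.72) and posterior against middle (3.97), and no other point passes.

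The mix of the GATA genes differed along the axis, as a comparison of libraries rather than of the genes' abundance. Gata4 made up 2.44% of the Gata4 and Gata6 UMIs in the E9.5 anterior library (exact Clopper-Pearson interval 0.0617 to 12.9%), 9.17% in the middle library (4.49 to 16.2%) and 39.5% in the posterior library (37.6 to 41.3%). At E10.5 the share was 4.44% in the middle library (0.543 to 15.1%) and 27.3% in the posterior library (22.9 to 32.2%). The posterior interval lay above the middle interval at both stages. Gata5 made up 33.3% (21.7 to 46.7%), 23.3% (16.3 to 31.5%) and 31.4% (29.5 to 33.2%) of the Gata5 and Gata6 UMIs from anterior to posterior at E9.5, with no such order.

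The E9.5 position difference of Gata4 was also present within clusters made without the GATA genes. In the unnamed cluster 1, led by genes that include Aplnr, Aldh1a2 and Wnt2, Gata4 was counted 0 times in 13 anterior cells, 3 times in 22 middle cells (5.45 CPM, 1.12 to 15.9) and 347 times in 143 posterior cells (67.8 CPM, 60.9 to 75.4). The 0 anterior counts allow up to 9.07 CPM, so the posterior cells of this cluster stood above the anterior and middle cells. In the same cells Gata6 stood at 63.5, 110.9 and 123 CPM and Gata5 at 36.3, 38.2 and 77.6 CPM, and their anterior and middle intervals overlapped. In the epithelium-like cluster, whose cells express Cldn6 and Shh, Gata4 went from 0 counts in 39 anterior cells to 5.49 CPM in 21 middle cells and 37.7 CPM (28.8 to 48.5) in 55 posterior cells. Gata6 there was 12.1, 33.0 and 71.0 CPM and Gata5 2.19, 6.87 and 38.3 CPM in the same order. Clusters were formed from all other variable genes, so cells of 1 cluster can still differ by position.

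**Figure D3:**
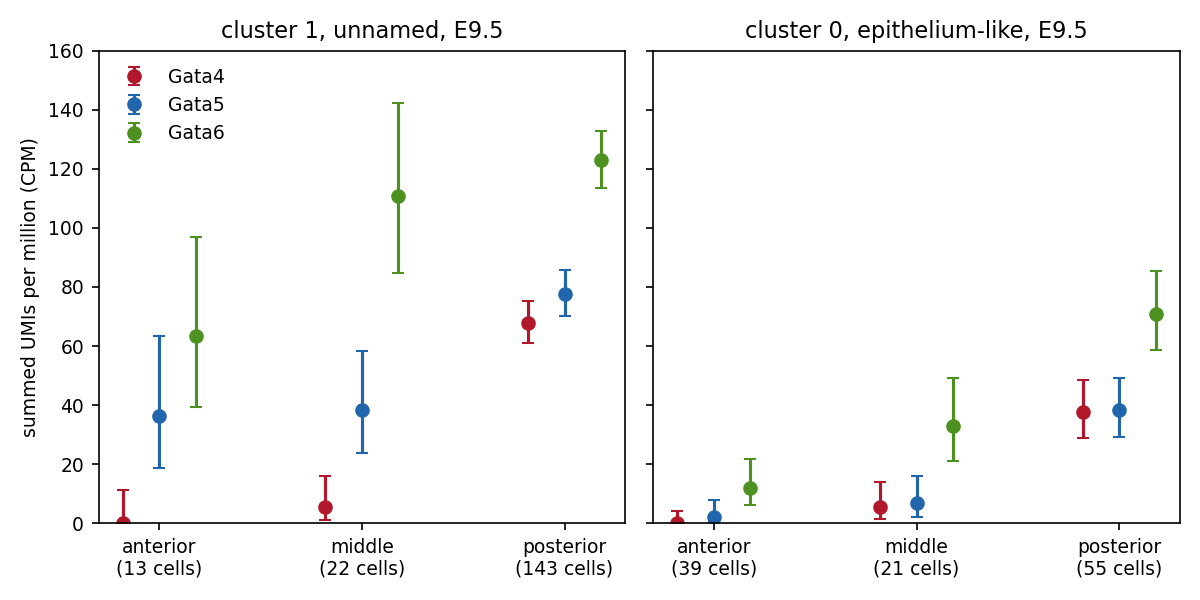
CPM of the 3 genes by E9.5 position within the unnamed cluster 1 and within the epithelium-like cluster, with exact 95% Poisson intervals as bars and the number of cells under each position. Gata4 is at 0 counts in the anterior cells of both clusters and at 67.8 and 37.7 CPM in their posterior cells.

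Leaving out all cells of the 3 named clusters removed 75.9% of the E9.5 anterior cells, 34.4% of the middle and 21.1% of the posterior cells. Gata4 was then counted 0, 6 and 897 times at E9.5 and 0, 2 and 89 times in the E10.5 anterior, middle and posterior libraries. The edgeR calls of Gata4 remained (posterior to middle log2 difference 3.90, adjusted p = 0.000890; posterior to anterior adjusted p = 0.00411). With every anterior count at 0, the fitted anterior fold is no bound and is not given. Gata5 was 1.07 ± 0.55 higher and Gata6 1.63 ± 0.53 higher in posterior than anterior libraries on the log2 scale (edgeR, adjusted p = 0.682 and 0.346).

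Among single cells the order was the same. After each cell was thinned to 4500 UMIs, which left out shallower cells (8 of the E9.5 posterior, 5 of the E10.5 anterior, 40 of the E10.5 middle and 89 of the E10.5 posterior cells), Gata4 had a UMI in 24.6% of 410 E9.5 posterior cells (20.5 to 29.1%) and 12.3% of 471 E10.5 posterior cells (9.48 to 15.6%). It was in 0 of the thinned cells of the other 5 libraries, which allows a UMI at that depth in up to 1.03% of E10.5 middle cells and in 4.92 to 9.68% of cells in the 4 small libraries. Without thinning it had a UMI in 8 of 61 E9.5 middle cells (13.1%), 1 of 54 E9.5 anterior cells and 2 of 331 E10.5 middle cells, so the limits do not cover cells that express the gene. Gata5 was in 3.70%, 8.20% and 19.3% of E9.5 anterior, middle and posterior cells, and in 4.81% and 11.9% of E10.5 middle and posterior cells. Gata6 was in 14.8%, 21.3% and 37.6% at E9.5, in 9.68% of the outflow tract cells, and in 9.28% and 24.6% of the E10.5 middle and posterior cells. Without thinning the posterior shares were 66.0%, 55.7% and 79.7% for Gata4, Gata5 and Gata6 at E9.5 and 14.8%, 14.6% and 28.9% at E10.5. No cell type known to lack these genes was found in the posterior libraries, so their level of free RNA could not be set.

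The posterior levels of all 3 genes were lower at E10.5. Gata4 went from 79.8 to 29.6 CPM, 2.70-fold lower (2.20 to 3.34), Gata5 from 55.9 to 29.6 CPM, 1.89-fold lower (1.54 to 2.35), and Gata6 from 122 to 78.6 CPM, 1.56-fold lower (1.37 to 1.78). Of 10539 genes with at least 50 posterior counts, 2.66% were at least 2-fold lower at E10.5 with 5 CPM added to each level, and only Gata4 of the 3 was past that fold. In the middle libraries 7.79% of genes were at least 2-fold lower by the same measure. Without the added 5 CPM, Gata4 was 6.37-fold lower there (1.36 to 59.8, from 10 counts to 2). Its counts were too few for it to be among those genes, so the share is no background for it. Gata6 was 2.94-fold lower (2.03 to 4.30), and the Gata5 interval (0.789 to 2.37-fold lower) included no change. With 1 sample per stage there is no test, and stage cannot be told apart from depth, sex or the dissection.

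Of the other genes of the family, Gata3 had the opposite order of levels at E9.5: 73.3, 54.3 and 6.96 CPM from anterior to posterior, beside 0, 6.37 and 2.61 CPM at E10.5. Its posterior to anterior difference in edgeR's fit was -2.93 ± 0.62 and did not pass (adjusted p = 0.180). Zfpm2, which encodes a FOG cofactor of GATA4, was counted 0, 1 and 79 times at E9.5 and 1, 3 and 67 times from anterior to posterior at E10.5, with a posterior to middle log2 difference of 3.47 ± 0.79 (edgeR, adjusted p = 0.269). Zfpm1, the related cofactor gene, lay between 9.99 and 14.2 CPM in the E9.5 libraries. Gata4 alone of the 7 tested genes of the list of 9 GATA and FOG genes passed, for both posterior comparisons. Over all 9825 genes tested 0.153% were called higher against anterior and 0.142% against middle libraries. The list's median posterior to anterior log2 difference, 1.98, is the Gata5 value itself and adds nothing to it.

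Among 22 genes reported as targets of GATA4 or GATA6, 19 were tested and 3 were higher in posterior than anterior libraries: Myl4, an atrial myosin light chain (2.32 ± 0.35, adjusted p = 0.0383 in edgeR's fit), Tbx5 and the secreted ligand gene Wnt2. Tbx5 and Wnt2 had no count in either anterior library, so their fitted folds are no bounds; their E9.5 posterior levels were 50.05 and 156 CPM. Against middle libraries 5 passed, all sarcomere genes: Myh6, Myl4, Myl7, Tnnt2 and Tnnc1, with Myl7 at 125 CPM in the E9.5 middle and 963 CPM in the E9.5 posterior library. Cardiomyocyte-like cells were found in the E9.5 posterior library and not in the middle library. Without all cells of the 3 named clusters, 25 genes were called against middle libraries, 8 of them among the 19 of the main fit. Which of the 5 sarcomere genes were among the 8 is not reported here. The part of the cardiomyocyte-like cells alone was not tested. Over all genes tested, 0.153% were called higher against anterior and 0.142% against middle libraries. The heart genes Hand2 (0.31 ± 0.66) and Nkx2-5 (-0.81 ± 0.42) and the Hedgehog effector Gli1 (2.28 ± 0.67) did not pass for posterior against anterior (edgeR, adjusted p = 0.978, 0.859 and 0.473). The median log2 difference of the target list was 1.89 against anterior and 0.78 against middle libraries, beside 0.02 and 0.04 over all genes tested.

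Of the 19 heart factors known to work with GATA4, all tested, 2 passed for posterior against anterior in edgeR's fit, Tbx5 and Foxf1. Foxf1 was at 3.74 ± 0.54 (edgeR, adjusted p = 0.0347), and the list median was 0.34. Over all 9825 genes tested 0.153% were called higher against anterior libraries, with a median of 0.02. Against middle libraries all 19 had a fitted difference above 0 and 0 passed, with a median of 0.55; over all 9825 genes tested 5381 were above 0 and 0.142% were called higher, with a median of 0.04. Of the 15 Hedgehog pathway genes 13 were tested, and Foxf1 alone passed for posterior against anterior, beside the same 0.153% of all genes tested. Foxf1 was already high in the middle libraries, at 108 CPM at E9.5 and 313 CPM at E10.5, against 17.0 and 3.94 CPM in the anterior libraries, an order that Gata4 did not have. From anterior to middle 0 members of any of these lists passed. The lists share genes with each other, and the calls for them come from the same fit.

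The levels of the GATA genes differed between clusters. The cardiomyocyte-like cells had 117 CPM of Gata4 (97.9 to 139), 103 CPM of Gata5 and 214 CPM of Gata6, the highest cluster level of Gata5 and Gata6. Gata4 was higher still in the unnamed cluster 5, 75 E9.5 posterior cells led by Phlda2, Hlx and Barx1, at 146 CPM (131 to 161), beside 46.5 CPM of Gata5 and 127 CPM of Gata6. The Gata4 intervals of these 2 clusters overlapped. Cluster 3, led by Dlk1, Tbx18 and Hand1, had 47.9 CPM of Gata4 and 113 CPM of Gata6 but 19.2 CPM of Gata5, against 71.7 CPM of Gata5 in cluster 1.

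At E10.5 the posterior cells fell mostly into 2 clusters that shared Gata4 and Gata6 levels but not Gata5. Cluster 9, led by Barx1 and Igf1, had 32.2 CPM of Gata4 (23.9 to 42.3), 79.5 CPM of Gata6 (66.2 to 94.6) and 15.8 CPM of Gata5 (10.2 to 23.3). Cluster 10, led by Pde5a and Nkx6-1 among histone and ribosomal genes, had 27.0 CPM of Gata4 (19.0 to 37.3), 82.6 CPM of Gata6 (68.1 to 99.3) and 50.4 CPM of Gata5 (39.2 to 63.8). The Gata5 intervals alone did not overlap. Barx1 had a UMI in 91.0% of the thinned cells of cluster 9 and 17.5% of those of cluster 10, and Tbx5 in 6.60% and 32.5%. In clusters 6 and 8, mostly middle cells, Gata4 stood at 1.41 and 1.08 CPM and Gata6 at 21.8 and 18.4 CPM.

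**Figure D4:**
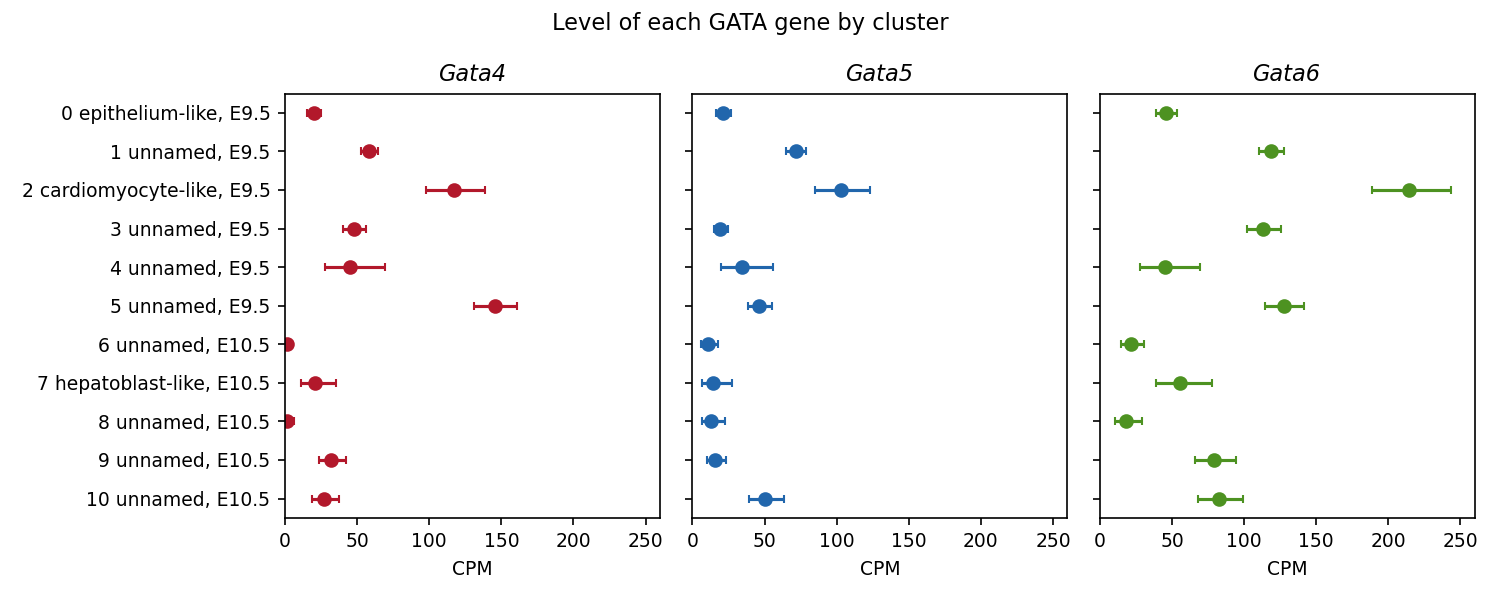
CPM of each gene in the 11 clusters, numbered as in the text, with exact 95% Poisson intervals as bars. Gata4 is highest in cluster 5 (146 CPM) and the cardiomyocyte-like cluster (117 CPM), Gata6 in the cardiomyocyte-like cluster (214 CPM), and among the E10.5 clusters Gata5 is highest in cluster 10 (50.4 CPM).

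The partners set the posterior cells apart from each other before any GATA gene was considered. In thinned cells of the E9.5 posterior library Tbx5 had a UMI in 68 of 410 cells, Foxf1 in 191 and Barx1 in 72; at E10.5 the numbers were 82, 284 and 235 of 471. Barx1 was less frequent in cells with Tbx5 than in cells without it. Expected over all possible draws of 4500 UMIs per cell, the pair had an odds ratio of 0.299 in the E9.5 and 0.461 in the E10.5 library. Among thinned E9.5 posterior cells, 4.41% of those with Tbx5 and 20.2% of those without had Barx1. In the E10.5 posterior library these shares were 36.6% and 52.7%, so sharing was not rare there. For Barx1 and Foxf1 the direction was the opposite, with expected odds ratios of 3.54 and 2.60. In the epithelium-like cells of the E9.5 posterior library, which should lack these mesodermal genes, Tbx5 was in 1, Foxf1 in 3 and Barx1 in 1 of 50 thinned cells, against 27.5%, 64.1% and 5.63% in cluster 1 (median UMIs 31135 and 32916). In the E10.5 hepatoblast-like posterior cells the shares were 6.98%, 9.30% and 11.6% of 43 cells. These shares were taken as a rough scale of free RNA, which was not itself measured. Whether these cells truly lack the partners, or include doublets, was not tested. Near this scale were the Barx1 shares of clusters 1 (5.63%) and 3 (1.25%) and the Tbx5 shares of clusters 5 (4.00%) and 9 (6.60%). By level, Barx1 in cluster 1 (15.2 CPM) and Tbx5 in cluster 5 (8.70 CPM) stood above the epithelium-like cells (2.51 CPM of each). Barx1 in cluster 3 (1.43 CPM) did not, and Tbx5 in cluster 9 (13.2 CPM) was below the hepatoblast-like cells (19.3 CPM).

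For the 9 pairs of a GATA gene with a partner, 2 measures were taken in each posterior library: the share of thinned cells with a GATA UMI among cells with and without a partner UMI, and the GATA level in all cells with and without a partner UMI. Of the 18 odds ratios from 1 random draw of 4500 UMIs, 3 had an exact conditional interval that did not include 1 (2 above, 1 below). Of the 18 ratios of levels, 11 had an exact interval that did not include 1 (8 above, 3 below). Cells of 1 library are not replicates, so no p-value was made from them, and the intervals cover counting error only.

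Gata4 followed Barx1 at E9.5. A Gata4 UMI was found in 41.7% of 72 thinned cells with Barx1 and in 21.0% of 338 cells without it, an odds ratio of 2.68 (1.51 to 4.74) that ranked 55 of 6958 genes; 4.43% of those genes reached an odds ratio of 2. Expected over all draws the ratio was 2.60 and ranked 18 of 6984 genes, of which 0.473% reached 2. With 15000 UMIs per cell, a depth kept by 375 cells, 85.3% of Barx1 cells and 46.2% of the others had Gata4, an odds ratio of 6.58 (3.64 to 13.2). The Gata4 level was 126 CPM in all cells with a Barx1 UMI and 56.3 CPM in cells without one, a ratio of 2.24 (1.98 to 2.52), and median UMIs were close (31664 and 31182).

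The E9.5 pairing of Gata4 and Barx1 coincided with a difference between clusters. Cluster 5 held 57 of the 72 Barx1 cells, and 46.7% of its thinned cells had Gata4. Within cluster 5 the odds ratio was 1.11 (0.341 to 3.80), with Gata4 in 47.4% of Barx1 cells and 44.4% of the others. Without thinning 98.7% of the cells of cluster 5 had a Barx1 UMI, so most of the others had lost it in the draw. This ratio therefore cannot tell whether the 2 genes go together within the cluster. Within cluster 1 the Gata4 level was 95.3 CPM in 35 cells with Barx1 and 57.8 CPM in 108 without, a ratio of 1.65 (1.32 to 2.06). The thinned Barx1 share of this cluster was near the rough scale taken for free RNA. Its Barx1 level was higher (15.2 against 2.51 CPM in the epithelium-like cells). A Barx1 UMI there need not mark expression in every cell. Without the cells of the named clusters the expected odds ratio was 2.77 and the ratio of levels 2.40 (2.09 to 2.75).

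At E10.5 the pairing of Gata4 with Barx1 was not seen. The odds ratio was 0.680 (0.370 to 1.22), 0.881 expected over all draws, and Gata4 stood at 30.5 CPM in cells with Barx1 and 28.5 CPM in cells without (ratio 1.07, 0.709 to 1.61). The E9.5 and E10.5 intervals did not overlap on either measure. Barx1 itself was at 88.1 CPM in the E9.5 and 720 CPM in the E10.5 posterior library.

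The Gata5 level was higher in cells with Tbx5 at both stages, while the share of thinned E9.5 cells varied with the draw. The level was 76.6 CPM in the 207 E9.5 posterior cells with a Tbx5 UMI and 30.5 CPM in the 211 without (ratio 2.51, 2.13 to 2.98) and median UMIs were 33653 and 29087. At E10.5 it was 55.8 CPM in 119 cells with Tbx5 and 22.9 CPM in 441 without (ratio 2.43, 1.59 to 3.68), where median UMIs were 5252 and 5447. At E10.5 19.5% of 82 thinned cells with Tbx5 and 10.3% of 389 without had Gata5 (odds ratio 2.14, 1.04 to 4.13, rank 165 of 7233 genes, of which 3.10% reached 2). The E9.5 draw gave 0.903 (0.406 to 1.78), where 4.76% of genes reached 2. Another draw gave 1.26 (0.633 to 2.34) and thinning to 2500 UMIs 1.52 (0.554 to 3.43), and all 3 intervals included 1. The value expected over all draws was 1.97 (rank 61 of 6984, of which 0.845% reached 2) and thinning to 15000 UMIs gave 2.19 (1.41 to 3.44). At E10.5 the expected value was 2.30 (rank 44 of 7202 genes, of which 1.56% reached 2). These 2 added calculations were made after the single draws had been seen to vary.

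The Gata5 and Tbx5 relation was also present without cardiomyocyte-like and other named cells, with a ratio of levels of 2.55 (2.10 to 3.11) in the E9.5 library and of 2.52 (1.63 to 3.86) in the E10.5 library. Within cluster 1 the Gata5 level was 88.2 CPM with Tbx5 and 25.5 CPM without (ratio 3.46, 2.25 to 5.59), and within cluster 3 it was 32.0 and 10.1 CPM (3.17, 1.73 to 6.07). In cluster 10 it was 68.3 and 39.2 CPM (1.74, 1.05 to 2.88). In the Barx1-rich cluster 5 the levels were 47.2 and 46.3 CPM (1.02, 0.645 to 1.57). Within cluster 1, Gata4 (2.07, 1.43 to 3.10) and Gata6 (1.93, 1.47 to 2.56) were also higher in the Tbx5 cells, and over the whole E9.5 posterior library their ratios were 1.14 (1.01 to 1.29) and 1.44 (1.30 to 1.59). Without cells of the named clusters these became 0.938 (0.821 to 1.07) and 1.21 (1.08 to 1.35). Within cluster 3 they were 1.93 (1.36 to 2.74) and 1.51 (1.21 to 1.88), and within cluster 5 they were 0.967 (0.750 to 1.23) and 0.690 (0.509 to 0.922).

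Gata5 was lower in Barx1 cells at E10.5, at 19.8 CPM in 291 cells with Barx1 and 41.2 CPM in 269 cells without (ratio 0.480, 0.311 to 0.729). The expected odds ratio of 0.534 ranked 7089 of 7202 genes, of which 1.35% reached 2, and the single draw gave 0.619, with 1.89% of genes at 2 or more. At E9.5 the Gata5 levels were 57.2 and 55.3 CPM (ratio 1.03, 0.887 to 1.20). Gata5 was also low in Barx1 cells of cluster 9 (12.8 against 59.6 CPM), where only 14 cells lacked Barx1 and the counts were 19 and 6. In cluster 10 it was 52.3 CPM in 54 cells with Barx1 and 49.9 CPM in 198 without (ratio 1.05, 0.560 to 1.86).

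Foxf1 paired with none of the 3 genes in the positive direction at E10.5. Gata6 was in a smaller share of Foxf1 cells: 31.4% of E9.5 cells with Foxf1 and 42.9% of those without had Gata6 (odds ratio 0.611, 0.397 to 0.932), while the E10.5 interval included 1 (0.721, 0.462 to 1.13). At E9.5 another draw gave 0.941 (0.611 to 1.44), no thinning 0.736 (0.404 to 1.27) and 15000 UMIs 0.641 (0.384 to 1.04). Each of these intervals included 1. Over 11 settings the E9.5 odds ratio ran from 0.596 to 0.941. An odds ratio of 2 with Foxf1 was reached by 2.6% of genes in the E9.5 draw and 1.92% in the E10.5 draw, and by 0.487% and 0.764% over all draws. Expected odds ratios of Gata6 with Foxf1 of 0.706 in the E9.5 and 0.636 in the E10.5 library ranked 6622 of 6984 and 6900 of 7202 genes. The Gata6 level differed less at E9.5, 119 against 130 CPM (ratio 0.915, 0.823 to 1.02), than at E10.5, 68.8 against 98.5 CPM (0.699, 0.545 to 0.898), and the difference between the stages was not tested. In cluster 10 the Gata6 levels were 57.2 and 136 CPM (0.422, 0.286 to 0.620), and in cluster 9 they were 77.6 and 89.2 CPM (0.869, 0.549 to 1.43). For Gata4 and Gata5 the E10.5 ratios of levels were 0.732 (0.485 to 1.12) and 0.649 (0.431 to 0.983). At E9.5 both were above 1, at 1.19 (1.04 to 1.37) and 1.38 (1.16 to 1.64). Without cells of the named clusters they were 1.16 (0.965 to 1.40) and 2.24 (1.68 to 3.06). Within cluster 1 the Gata4 ratio was 0.401 (0.304 to 0.535), with only 12 cells without Foxf1, and that of Gata5 was 1.27 (0.852 to 1.97). Within cluster 3 both intervals included 1.

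**Figure D5:**
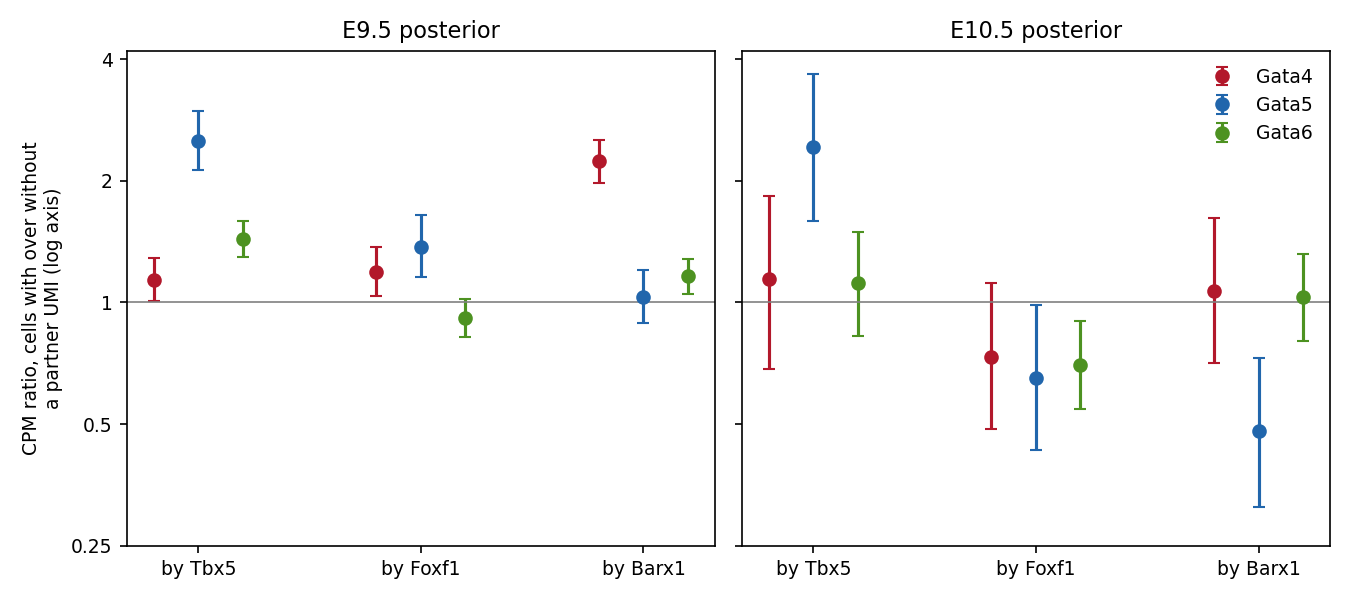
Ratio of the level (CPM) of each GATA gene in posterior cells with a UMI of Tbx5, Foxf1 or Barx1 to its level in cells without one, on a log axis, with exact 95% conditional intervals as bars. Gata5 lies above 1 for Tbx5 at both stages (2.51 and 2.43), and Gata4 lies above 1 for Barx1 at E9.5 (2.24) but not clearly at E10.5 (1.07).

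Combinations of the 3 partners gave a mixed picture in smaller numbers. At E9.5 Gata4 was in 22 of 53 thinned cells with Foxf1 and Barx1 but no Tbx5, and in 6 of 16 with Barx1 alone. It was in 8 of 39 with Tbx5 and Foxf1 but no Barx1, and in 21 of 98 with Foxf1 alone. It was in 33 of 175 with none of the partners, but also in 9 of 26 with Tbx5 alone. At E10.5 Gata5 was in 6 of 20 cells with Tbx5 alone and in 2 of 10 with Tbx5 and Barx1 but no Foxf1. It was in 5 of 32 with Tbx5 and Foxf1 but no Barx1, and in 3 of 20 with all 3 partners. Without Tbx5, Gata5 was in 12 of 148 with Foxf1 and Barx1, and in 13 of 100 with no partner. In the E9.5 draw it was in 2 of 26 cells with Tbx5 alone. It was in 9 of 39 with Tbx5 and Foxf1 but no Barx1, and in 39 of 175 with no partner. A GATA gene of any kind was found in 97 of the 175 partner-free cells at E9.5 and 41 of the 100 at E10.5. At this depth a cell without a UMI can still express the gene.

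Detection of 1 GATA gene in a posterior cell went with detection of the others, with odds ratios above 1 for all 3 pairs in both libraries. Expected over all draws, the odds ratios at E9.5 were 2.06 for Gata4 with Gata6, 1.85 for Gata4 with Gata5 and 1.75 for Gata5 with Gata6, and at E10.5 they were 2.39, 2.46 and 3.14. With Gata4 as the partner an odds ratio of 2 was reached by 0.401% of genes in the E9.5 library and 3.5% in the E10.5 library, with Gata5 by 0.372% and 2.89%, and with Gata6 by 0.372% and 1.03%. In the single draw, 20 of 410 E9.5 posterior cells had all 3 genes, 62 had 2, 150 had 1 and 178 had none; at E10.5 the numbers were 5, 40, 135 and 291 of 471. Gata6 alone was the most frequent single state, in 80 E9.5 and 77 E10.5 posterior cells.

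Over the posterior cells the genes most like Gata4 by co-detection (the lower of the 2 odds ratios among 6598 genes, 410 and 471 thinned cells) were Hand2 (3.96 at E9.5 and 4.18 at E10.5), Klhdc8b, Ddc, Tmem131 and Pmp22, with lower values of 2.82, 2.47, 2.35 and 2.34. Ddc encodes an amino acid decarboxylase and Pmp22 a membrane protein of myelin. Expected over all draws, Hand2 with Gata4 gave 2.38 (rank 6 of 6984 genes) and 3.31 (rank 12 of 7202). For Gata5 the 5 genes were Akap7, Ccdc141, Sfmbt1, Airn and Igf2r, at 2.80, 2.53, 2.43, 2.35 and 2.25; Airn is the antisense partner transcript of the imprinted growth factor receptor gene Igf2r. For Gata6 they were Hint1, the troponin gene Tnni1, the FOG gene Zfpm1, the sodium pump subunit gene Atp1b1 and again Hand2, at 2.98, 2.51, 2.49, 2.38 and 2.30. Hint1 had a UMI in 97.8% and 99.2% of thinned cells, so its value rests on the few cells without one. All 3 sets were picked on the same single draw that gave their values, so these can be too high. A value over all draws is given here for Hand2 with Gata4 only.

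Over the 7 libraries the genes whose level (log2 of CPM plus 5) most resembled each member differed between the members, with no gene shared among the 3 sets of 4. They were Shisa3, Cox6a2, Ttr and Lsp1 for Gata4 (Pearson r from 0.961 to 0.996), Mroh1, Tvp23a, Ighmbp2 and Irgq for Gata5 (0.989 to 0.997) and Clcn4, Robo2, Armc8 and Snd1 for Gata6 (0.984 to 0.987), the highest among 9718 genes. The r between Gata4 and Gata5 was 0.822, between Gata4 and Gata6 0.719 and between Gata5 and Gata6 0.757. Libraries share stage and depth, and values this high among so many genes and 7 points are a description only. Gata4 and Tbx5 had an r of 0.806, Gata4 and Foxf1 0.603, and Gata4 and Barx1 0.415, and Barx1 stood at 275 CPM in the E10.5 outflow tract library, where Gata4 was not counted.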

How the data were processed

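Trypsin-dissociated cells of wild-type mouse second heart field at 2 stages were made into 10x Chromium libraries and read on a NextSeq, per the labels' protocols. Cell Ranger 3.0, Seurat and mm10 are named in the submitters' processing notes. The authors deposited 1 matrix of raw UMI counts for each stage, and the suffix of a barcode gives its position per the labels. The rule by which cells were called Osr1+, the annotation, the strand setting and any filter on cells are not stated in these sources.

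The members and gene lists were chosen with earlier results of these data known. Counts were summed per library. The 6 libraries of positions present at both stages (n = 2 per position) entered a quasi-likelihood fit in edgeR 4.0.16 under R 4.3.3 (filterByExpr, TMM) on stage and position, with 2 residual degrees of freedom and a common biological coefficient of variation of 0.217. Nothing says that libraries came from separate embryos, so p-values measure the spread between these libraries. A gene was called at an adjusted p (Benjamini-Hochberg, 9825 genes tested) under 0.05. SEs are the fold over the square root of its F. The fit was tested on simulated data (9553 genes; 7 false among 121 calls). DESeq2 1.42.0, other filters and leaving out libraries were alternatives.

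Shares of cells used 1 random draw of 4500 UMIs per cell, and odds ratios had 0.5 added to each count. Intervals are exact (95%): Clopper-Pearson for shares, Poisson for levels and conditional for ratios. Background odds ratios used genes in 5 to 95% of cells. Clustering (scanpy 1.11.5) left out the GATA genes, Osr1 and genes of mitochondria and haemoglobin, and used 2000 variable genes, 20 principal components, 15 neighbours and Leiden at resolution 0.6. A cluster was named when at least 3 markers of a type were raised and 2 were among its 10 leading genes; the last condition was added after a first naming went against the leading genes. Scrublet marked 0.957 to 26.7% of cells as doublets outside the E9.5 middle library, where it marked 0; its highest values were in libraries of 31 to 54 cells. Doublets were kept, except in 1 alternative.

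Named genes were the members, partners, target genes past the test with up to 4 that were not, and for each member the 5 genes most like it over cells and over libraries (the fifth over libraries is not reported here); cluster leaders were named as description. Symbols matched GENCODE vM21 for 99.0% of genes, and 7 of 11 wanted symbols had a RefSeq promoter entry, among the members Gata5.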

Additional observations from a re-analysis of the deposited data

Results flagged for a closer look

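The co-detection of Gata4 with Barx1 differed between the 2 posterior libraries: an odds ratio of 2.68 in the E9.5 library stood against 0.680 in the E10.5 library, where the interval (0.370 to 1.22) included 1. It was picked, after the values had been seen, as the pair whose exact intervals of the odds ratio did not overlap between the stages. For the ratio of levels the intervals of Gata5 with Barx1 and of Gata5 with Foxf1 did not overlap either. With 1 library per stage the difference was not tested.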

How the results depend on the processing

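The main fit pairs the positions within a stage through its stage term. No paired analysis was possible because the labels give no replicate numbers beyond that. The direction of every fitted difference and the Gata4 calls held under DESeq2, without the filter, without doublets and without cells of named types. DESeq2 called 54, 29 and 4 genes for posterior against anterior, posterior against middle and middle against anterior; no filter gave 260, 178 and 64, and leaving out cells of named types gave 5 for the last. Unfiltered, Gata5 (2.05 and 1.27) and Gata6 (2.48 and 1.37) passed for both posterior comparisons, and Gata6 (2.61) passed in DESeq2 for posterior against anterior. Leaving out each library in turn called 95 to 332, 37 to 231 and 14 to 123 genes; the cause was not tested. In each of these fits 1 position has a single library, which is assumed to vary like the others. Fitted log2 differences then ranged from 6.60 to 9.83 for Gata4, 1.68 to 10.03 for Gata5 and 2.06 to 11.16 for Gata6 against anterior (highest without the E9.5 anterior library, where the remaining one is at 0, so no bound). Gata4 lost its anterior call there, while Gata5 was called in 4 and Gata6 in 6 of the 6 fits. They ranged from 3.64 to 4.70, 0.78 to 1.70 and 0.85 to 1.91 against middle, and from 1.98 to 5.87, 0.42 to 8.75 and 0.76 to 9.82 for middle against anterior, where Gata6 passed without the E10.5 posterior library.

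Shares moved with depth. Without thinning, Gata4 was in 13.1% and 66.0% of E9.5 middle and posterior cells, Gata5 in 16.7%, 24.6% and 55.7% and Gata6 in 31.5%, 60.7% and 79.7% from anterior to posterior, and Gata6 in 28.9% of E10.5 posterior cells. With 2500 UMIs, the E9.5 and E10.5 posterior shares were 16.4% and 5.71% (Gata4), 12.3% and 6.96% (Gata5) and 25.6% and 12.9% (Gata6), and the middle shares of Gata6 9.84% and 4.83%. Among E9.5 odds ratios, Gata5 with Tbx5 was 2.64 without thinning, 0.392 and 2.63 in cells above and below the median depth, 1.97 over all draws, 1.89 over all draws without cells of named types and 2.19 at 15000 UMIs. Gata4 with Tbx5 was 2.72 in cells below the median depth, and Gata6 with Barx1 0.694 and 2.54 above and below it. Another draw gave 0.778 for Gata4 and 0.941 for Gata6 with Foxf1. Gata4 with Barx1 was 5.28 without thinning and 6.58 at 15000 UMIs, and above 1 in all 11 settings (2.32 to 6.58).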
